A study of Danio rerio with 6 samples.

Results

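The genes of the Notch pathway and its Hes and Hey repressors described here are 50 of the 31743 genes in the deposited table. They were chosen by a match of their names to those of Notch ligands, receptors, modifiers, nuclear partners and her, hes or hey repressors. By role they are 9 ligands, 4 receptors, 7 modifiers (3 Fringe, 2 Numb and 2 Deltex genes), 5 genes of the nuclear complex and 25 repressors, which are called targets below whether or not they depend on Notch. The name pattern reads lower-case letters, so it leaves out another Deltex gene, listed as DTX4. That gene stood at 7.03 ± 0.967 TPM (a read share scaled by gene length and library size, comparable between genes) in foxl2l+/+ and 7.09 ± 0.375 TPM in foxl2l-/- libraries (mean ± SD, n = 3) and was not called, with a log2 fold change of -0.25 ± 0.23 (SE).

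The Notch pathway lets neighbouring cells signal by direct contact. A Delta or Jagged ligand on one cell binds a Notch receptor on the next, the receptor is cut, and its intracellular domain enters the nucleus and turns the DNA-binding factor Rbpj and its Mastermind co-activators on at target genes. The best known targets encode Hes and Hey proteins, basic helix-loop-helix repressors that are called her, hes and hey genes in zebrafish. In the zebrafish embryo several her genes, her9, her3, her5 and her11 among them, have been described as controlled by other inputs than Notch. In gonads Notch is best known for exchange between germ cells and the somatic cells around them.

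The study sequenced RNA from sorted germ cells of zebrafish (strain TL) aged 21 days after fertilization. All fish carried foxl2l:egfp, a reporter in which the foxl2l promoter drives EGFP, and they were either foxl2l-/- (3 libraries) or foxl2l+/+ (3 libraries). Trunks with the gonad were dissociated with collagenase and trypsin, and around 300 EGFP-positive cells of each genotype were sorted. Foxl2l encodes a forkhead factor of germ cells, and its action in female meiotic entry is the subject of the series. The labels state neither the lesion in foxl2l nor how many fish gave a library, so p-values measure the spread between libraries, which may be technical in part.

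Libraries held between 25176401 and 39189535 counts, the smallest being foxl2l+/+ replicate 3. The germ cell markers ddx4, dazl, piwil1, piwil2, dnd1, tdrd6, tdrd9 and sycp3 summed to 4645 to 5471 TPM in foxl2l+/+ and 4087 to 6092 TPM in foxl2l-/- libraries. Of these 8 genes 2 were called lower, dnd1 and sycp3, a gene of the meiotic chromosome axis that read 890 ± 125 TPM in foxl2l+/+ and 147 ± 26.5 TPM in foxl2l-/- libraries (log2 fold change -2.83 ± 0.21, SE). The targeted gene, listed as zgc:194189, read 959, 1095 and 1392 TPM in foxl2l+/+ and 2381, 2076 and 1908 TPM in foxl2l-/- libraries, a log2 fold change of 0.64 ± 0.20 (SE; adjusted p = 0.0263, edgeR) that lost its call without any one library other than replicate 3 of either genotype (adjusted p from 0.0504 to 0.105). Its transcript was thus present in both genotypes and does not check the labels. Replicate 3 of foxl2l-/- stood apart from its group, with chi-square values per degree of freedom of 114 and 80.6 against the others, while the other replicate pairs gave 31.6 to 61.8. In these bulk samples, fewer cells of a type and less RNA per cell cannot be told apart.

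The foxl2l-/- libraries had more jag2b, her9, her8a, hes6, rbpjb and numbl transcript and less notch2, notch1a, rfng and numb. Of the 50 genes, 42 had enough counts to be tested, with 10 called higher in foxl2l-/- cells and 6 called lower (edgeR quasi-likelihood test, Benjamini-Hochberg adjustment, threshold 0.05). The 16 calls are 38.1% of those tested, against 31.6% of all 23576 genes tested. Higher calls made up 23.8%, against 15.7% of all genes, and lower calls 14.3%, against 15.8%. These shares lie near the background of a comparison in which many genes differ, so the counts are no result about the pathway as a whole. Without foxl2l-/- replicate 3, 13 of 47 genes tested were higher and 8 lower, where 13.6% and 15.5% of all genes were. The 13 include jag2a, rbpjl, her12 and her4.1, which entered that fit only through their counts in foxl2l-/- replicates 1 and 2. That selection raises the number called higher, so it is no result about the pathway either. The median log2 fold change was 0.39 over the 42 and 0.05 over all genes, or 0.59 and 0.25 with libraries scaled by their totals alone, where all genes split into 4882 higher and 2723 lower in place of 3710 and 3733.

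**Figure D1:**
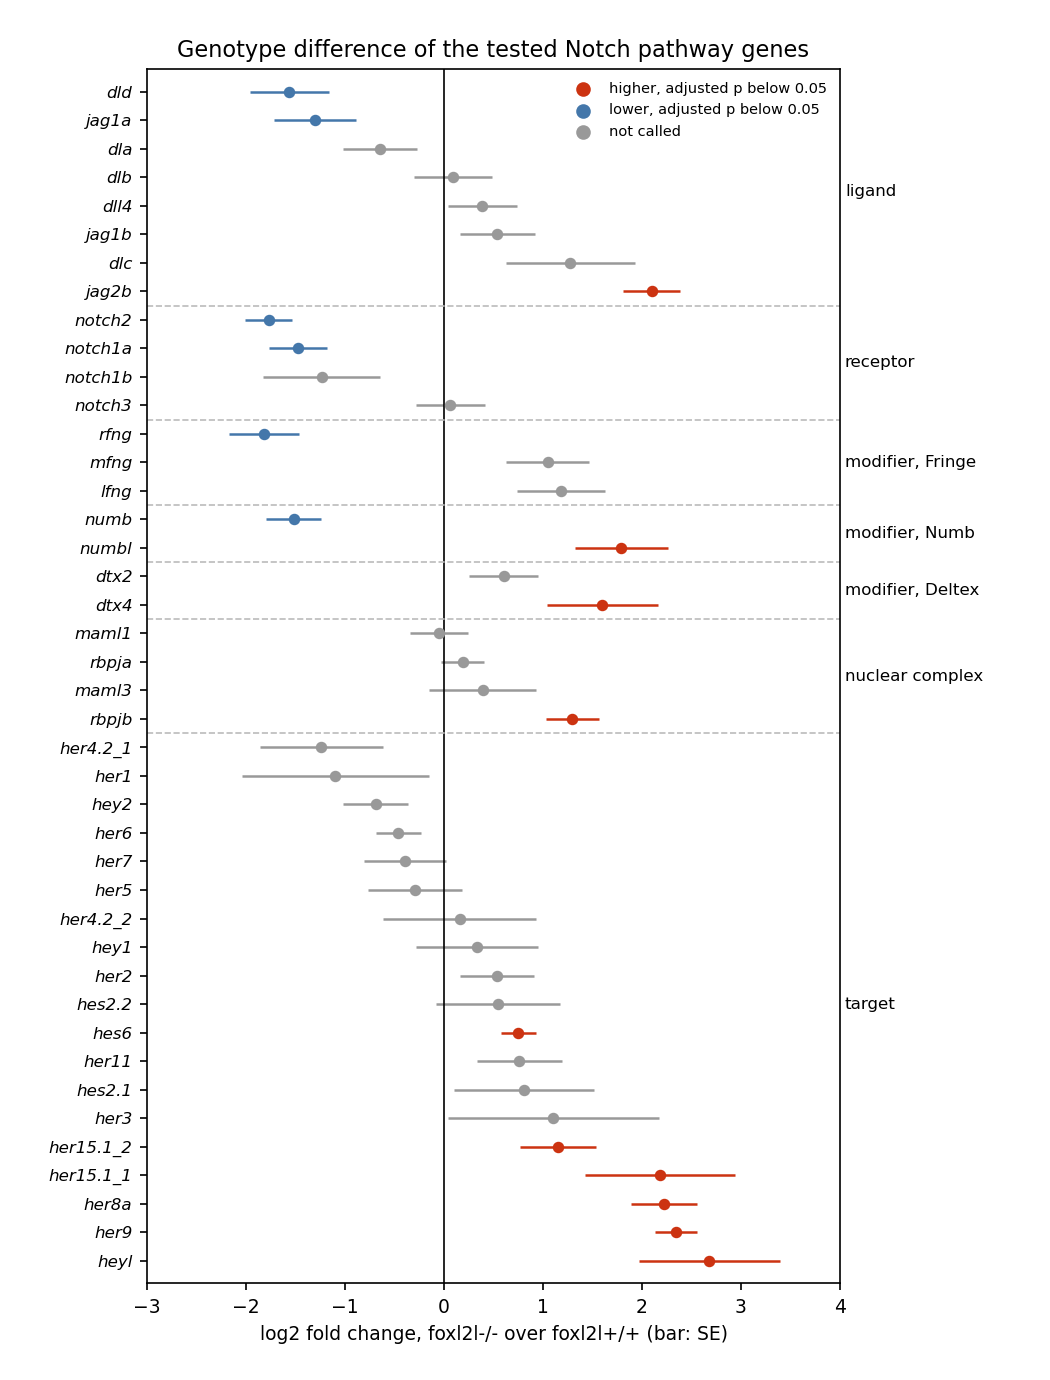
Log2 fold change of foxl2l-/- over foxl2l+/+ for the 42 tested genes, grouped by role, with bars of 1 standard error (3 libraries per genotype). The 6 called targets lie to the right of 0, the 2 called receptors to the left, and the ligands and modifiers hold calls on both sides.

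Fold changes come from counts scaled for library composition, whereas TPM is printed as deposited. The foxl2l-/- libraries read slightly high in TPM, with a median difference of 0.22 on the log2(TPM + 1) scale over the 19360 genes at 1 TPM or more in 3 libraries. Positions are whole gene spans as the table gives them, GRCz11 being the build in the submitters' processing notes. Where TPM values of the groups are said not to overlap, 47.6% of all genes tested share that property (31.5% with foxl2l-/- above and 16.1% with it below).

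Among ligands, jag2b was the most abundant transcript in all 3 foxl2l-/- libraries and in foxl2l+/+ replicates 2 and 3, while dld led in foxl2l+/+ replicate 1. Jag2b (ENSDARG00000021389) encodes a Jagged-type ligand and lies on chromosome 20, 21391181 to 21475620. Its level was 2.59, 4.72 and 4.08 TPM in foxl2l+/+ replicates 1 to 3 and 13.8, 18.5 and 27.5 TPM in foxl2l-/- replicates 1 to 3. Every foxl2l-/- library stood well above every foxl2l+/+ library. Jag2b rose 4.29-fold, or by 2.10 ± 0.29 on the log2 scale (SE; adjusted p = 0.000223, edgeR). It made up 22.1 ± 8.02% of the summed ligand TPM in foxl2l+/+ and 58.2 ± 3.32% in foxl2l-/- libraries (mean ± SD, n = 3).

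The Delta ligand gene dld fell. Dld, which acts in somite segmentation and neurogenesis of the zebrafish embryo (chromosome 13, 6075572 to 6081803), read 5.94, 3.33 and 3.26 TPM in foxl2l+/+ and 1.87, 1.04 and 2.11 TPM in foxl2l-/- libraries. The groups did not overlap, and dld fell by 1.56 ± 0.40 on the log2 scale (SE; adjusted p = 0.0104, edgeR). Leaving out foxl2l+/+ replicate 1 gave an adjusted p of 0.0521, and leaving out foxl2l-/- replicate 2 gave 0.0530, the highest of all alternatives, whose lowest was 0.000382. Its share of the ligand sum was 23.7 ± 7.59% in foxl2l+/+ and 5.15 ± 2.11% in foxl2l-/- libraries.

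Jag1a, another Jagged gene, was at 1.82, 1.58 and 2.27 TPM in foxl2l+/+ and 0.461, 0.822 and 1.53 TPM in foxl2l-/- libraries. The highest foxl2l-/- library came close to the lowest foxl2l+/+ library. Jag1a was called lower, at -1.30 ± 0.41 on the log2 scale (SE; adjusted p = 0.0304, edgeR), a call that depended on single libraries. It ended when any library other than foxl2l-/- replicate 3 was left out (adjusted p from 0.0550 to 0.113), when libraries were scaled by totals alone (adjusted p = 0.0649), and in limma on TPM, within 0.00270 to 0.119 over all alternatives to edgeR's main test.

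The remaining ligands did not pass. Dla read 1.79, 1.37 and 1.42 TPM in foxl2l+/+ and 1.22, 0.999 and 1.27 TPM in foxl2l-/- libraries, with a log2 fold change of -0.64 ± 0.37 (SE). Every foxl2l-/- library was below every foxl2l+/+ library, by a margin smaller than the spread within the groups. Dlb, another Delta gene, was at 2.78, 1.56 and 2.90 TPM in foxl2l+/+ and 2.79, 2.08 and 4.31 TPM in foxl2l-/- libraries, which overlap. Dlc, a partner of dld in the segmentation clock, read 0.560, 0.103 and 0.595 TPM in foxl2l+/+ and 0.700, 1.70 and 1.17 TPM in foxl2l-/- libraries. Those groups do not overlap, and the log2 fold change of dlc was 1.28 ± 0.65 (SE; adjusted p = 0.157, edgeR), and it passed with limma-voom (adjusted p = 0.0435).

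Jag1b stood at 1.23, 2.29 and 2.41 TPM in foxl2l+/+ and 1.80, 3.98 and 4.79 TPM in foxl2l-/- libraries, with overlap. Dll4, the Delta ligand best known from arterial endothelium, read 1.65, 0.743 and 1.43 TPM in foxl2l+/+ and 1.73, 2.03 and 2.13 TPM in foxl2l-/- libraries. Its groups were separate in TPM and overlapped once scaled for composition. Jag2a, the paralogue of jag2b, was too low to be tested, with 6, 0 and 5 counts in foxl2l+/+ and 67, 42 and 1 in foxl2l-/- libraries. Replicate 3 of foxl2l-/-, the lowest of its group for jag2a, was the highest for jag2b.

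Receptors receive the signal. All 4 were detected, and the most abundant of them was lower in foxl2l-/- libraries. Notch2 (ENSDARG00000043130, chromosome 8, 19548985 to 19619792) read 11.3, 18.01 and 19.0 TPM in foxl2l+/+ and 5.51, 6.11 and 5.32 TPM in foxl2l-/- libraries. The groups were well apart. Notch2 fell by 1.77 ± 0.24 on the log2 scale (SE; adjusted p = 0.000195, edgeR), to a 3.41-fold lower level.

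Notch1a, which patterns the early nervous system and somites in zebrafish (chromosome 21, 4766244 to 4849056), was at 3.32, 5.72 and 5.68 TPM in foxl2l+/+ and 1.76, 2.07 and 2.56 TPM in foxl2l-/- libraries. It fell by 1.48 ± 0.29 on the log2 scale (SE; adjusted p = 0.00246, edgeR), again with no overlap. Its paralogue notch1b was scarce, at 0.689, 0.350 and 0.645 TPM in foxl2l+/+ and 0.0933, 0.265 and 0.516 TPM in foxl2l-/- libraries. It did not pass, with a log2 fold change of -1.23 ± 0.59 (SE) and overlapping groups; without foxl2l-/- replicate 3 it was called lower (log2 fold change -1.84, adjusted p = 0.0440 in edgeR's test), as it was with limma-voom (adjusted p = 0.0266).

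Notch3, the receptor of pericytes and smooth muscle in vertebrates, did not pass. It read 1.59, 4.11 and 3.70 TPM in foxl2l+/+ and 3.66, 4.91 and 3.22 TPM in foxl2l-/- libraries, with a log2 fold change of 0.06 ± 0.35 (SE). Whether it differed from notch2 in its response was not tested. The 4 receptors summed to 24.7 ± 6.79 TPM in foxl2l+/+ and 11.99 ± 1.21 TPM in foxl2l-/- libraries (mean ± SD, n = 3). Notch2 made up 65.4 ± 1.46% of that sum in foxl2l+/+ and 47.2 ± 2.45% in foxl2l-/- libraries, and notch3 made up 12.2 ± 2.62% and 32.6 ± 4.59%. By mean TPM the order was notch2, notch1a, notch3 and notch1b in foxl2l+/+, and notch2, notch3, notch1a and notch1b in foxl2l-/- libraries. Within each foxl2l+/+ library notch1a read above notch3, although their ranges overlapped between libraries. In foxl2l-/- libraries every notch3 value was above every notch1a value.

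**Figure D2:**
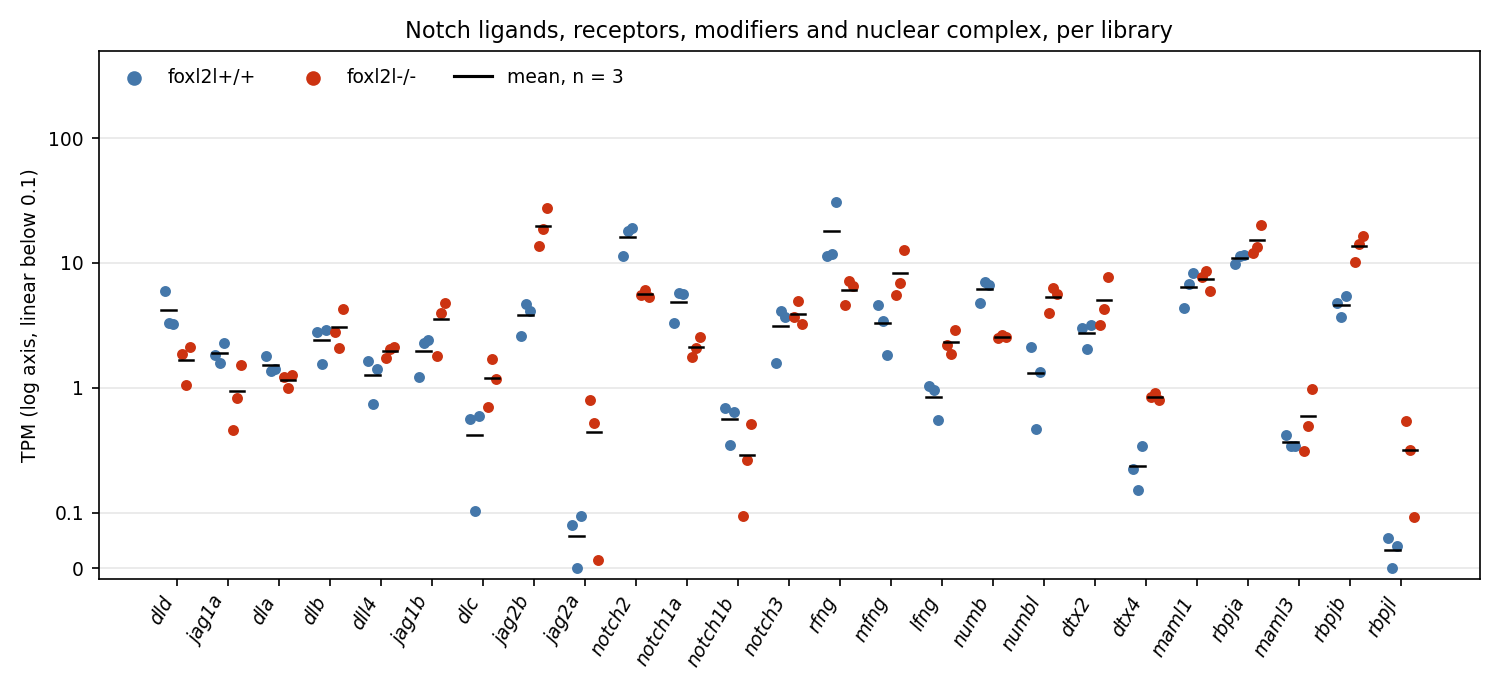
TPM of each ligand, receptor, modifier and nuclear-complex gene in the 6 libraries, on a log axis that is linear below 0.1, with bars at the mean of 3 libraries. Jag2b, numbl and rbpjb are higher and notch2, notch1a, rfng and numb are lower in every foxl2l-/- library than in any foxl2l+/+ library.

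Fringe enzymes add a sugar to Notch and so tune which ligands it responds to. The Radical fringe gene rfng (chromosome 12, 3054442 to 3077395) read 11.5, 11.9 and 30.8 TPM in foxl2l+/+ and 4.599, 7.17 and 6.51 TPM in foxl2l-/- libraries. The foxl2l+/+ values spread widely, replicate 3 being far above the others, but no foxl2l-/- library reached them. Rfng fell by 1.82 ± 0.36 on the log2 scale (SE; adjusted p = 0.00235, edgeR), and without foxl2l+/+ replicate 3 the log2 fold change was -1.20 (adjusted p = 0.0129).

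The Lunatic and Manic fringe genes did not pass, although every foxl2l-/- value was above every foxl2l+/+ value. Lfng was at 1.04, 0.961 and 0.548 TPM in foxl2l+/+ and 2.20, 1.87 and 2.92 TPM in foxl2l-/- libraries, and mfng at 4.64, 3.43 and 1.83 against 5.52, 6.90 and 12.6 TPM. Log2 fold changes were 1.18 ± 0.45 for lfng and 1.05 ± 0.42 for mfng (SE), with adjusted p of 0.0607 and 0.0756 in edgeR's test, and each passed with DESeq2 (0.0267 and 0.0400), library totals alone (0.0306 and 0.0388) and limma on TPM. Rfng was the highest of the 3 in all foxl2l+/+ libraries, while mfng was highest in foxl2l-/- replicates 1 and 3.

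The Numb genes, whose products bind Notch and block its signal through endocytosis, changed in opposite directions. Numb (chromosome 17, 51821906 to 51893123) read 4.74, 7.08 and 6.59 TPM in foxl2l+/+ and 2.49, 2.64 and 2.55 TPM in foxl2l-/- libraries. It fell by 1.52 ± 0.28 on the log2 scale (SE; adjusted p = 0.00154, edgeR). Numbl, its Numb-like paralogue (chromosome 15, 14436159 to 14552101), read 2.10, 0.470 and 1.33 TPM in foxl2l+/+ and 3.95, 6.35 and 5.61 TPM in foxl2l-/- libraries, and rose by 1.79 ± 0.47 (SE; adjusted p = 0.0121, edgeR). Numb was above numbl in every foxl2l+/+ library and below it in every foxl2l-/- library, while their sum was 7.44 ± 0.548 and 7.87 ± 1.30 TPM (SD, n = 3).

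Deltex proteins are ubiquitin ligases that bind the Notch intracellular domain. Dtx4, named dtx4b in the reference, was scarce. It had 21, 16 and 22 counts in foxl2l+/+ and 85, 89 and 67 in foxl2l-/- libraries, or 0.222, 0.152 and 0.339 against 0.838, 0.902 and 0.795 TPM. The groups were apart, and dtx4 rose by 1.60 ± 0.56 on the log2 scale (SE; adjusted p = 0.0450, edgeR). That call ended without any one library other than foxl2l+/+ replicate 3 (adjusted p from 0.0551 to 0.120) and with the replicate block (adjusted p = 0.0750), with 0.0174 the lowest value of any alternative. Dtx2 did not pass, at 3.01, 2.06 and 3.20 TPM in foxl2l+/+ and 3.16, 4.28 and 7.75 TPM in foxl2l-/- libraries. The separate gene listed as DTX4 was more abundant than dtx4 and was not called, at 7.03 ± 0.967 TPM in foxl2l+/+ and 7.09 ± 0.375 TPM in foxl2l-/- libraries.

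In the nucleus, Rbpj is the DNA-binding factor through which Notch acts, and zebrafish has a pair of rbpj genes. Rbpjb (chromosome 7, 62080456 to 62206933) was at 4.76, 3.71 and 5.40 TPM in foxl2l+/+ and 10.1, 14.2 and 16.6 TPM in foxl2l-/- libraries. It rose by 1.30 ± 0.27 on the log2 scale (SE; adjusted p = 0.00317, edgeR), with no overlap. Rbpja read 9.87, 11.5 and 11.6 TPM in foxl2l+/+ and 12.02, 13.4 and 20.0 TPM in foxl2l-/- libraries, and its log2 fold change of 0.19 ± 0.22 (SE) did not pass. Rbpja was above rbpjb in all foxl2l+/+ libraries, while in foxl2l-/- replicate 2 rbpjb was the higher.

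Mastermind genes, whose products bridge Notch and Rbpj to co-activators, did not pass. Maml1 read 4.34, 6.73 and 8.23 TPM in foxl2l+/+ and 7.65, 8.56 and 5.91 TPM in foxl2l-/- libraries, and maml3 stayed below 1 TPM in all 6. Rbpjl, an Rbpj-like gene, had 2, 0 and 1 counts in foxl2l+/+ and 21, 12 and 3 in foxl2l-/- libraries and was not tested. It overlaps matn4 on the other strand, a gene with 7629 counts in all that fell, and the libraries do not record strand.

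Among the 25 targets 19 were tested, and 6 were called higher and 0 lower. That is 31.6% of the 19 called higher and 0% lower, against 15.7% and 15.8% of all genes. Heyl had only 16, 4 and 5 counts in foxl2l+/+ libraries and so entered the test through its foxl2l-/- counts. Each of the near-identical her15 copies counts as a call of its own. The share of higher calls is thus a description and no result about the targets as a set. At an unadjusted p below 0.05 the edgeR test gave 0 lower targets. Hey2, her4.2_1 and her6 came near, with negative log2 fold changes (unadjusted p = 0.0562, 0.0669 and 0.0683, edgeR). DESeq2 called 0 lower, and hey2 was called lower with limma-voom and without foxl2l-/- replicate 3. Under library totals alone the same 6 were called higher and 0 lower, where 20.7% of all genes were called higher and 11.5% lower. Higher calls were 4 of 21 without foxl2l+/+ replicate 1, 4 of 20 without foxl2l-/- replicate 2 and 5 of 19 with the replicate block. Of all genes, 11.9%, 11.6% and 15% were called higher there. Without foxl2l-/- replicate 3 they were 8 of 22, her12 and her4.1 among them, against 13.6% of all genes. Only hes6, her8a and her9 were called in every alternative.

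Her9 led the targets in foxl2l-/- cells. Her9 (ENSDARG00000056438, chromosome 23, 23399520 to 23401305) encodes a Hes-type repressor that holds back neurogenesis between the proneural domains of the zebrafish embryo, where BMP and not Notch was described as its input. It read 34.1, 52.0 and 39.9 TPM in foxl2l+/+ and 245, 249 and 276 TPM in foxl2l-/- libraries. Her9 rose 5.07-fold, or by 2.34 ± 0.21 on the log2 scale (SE; adjusted p = 1.14e-05, edgeR). Its share of the summed target TPM was 22.6 ± 3.81% in foxl2l+/+ and 53.6 ± 0.695% in foxl2l-/- libraries (mean ± SD, n = 3). The 25 targets together summed to 185 ± 8.999 and 479 ± 29.9 TPM, and her9 was nearer to the top of all 31743 genes in foxl2l-/- libraries, at the 97.7 percentile of TPM against 87.8 in foxl2l+/+.

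Hes6, whose product pairs with other Hes proteins and acts with Her1 and Her7 in the zebrafish segmentation clock, was the highest target on average in foxl2l+/+ libraries. It lies on chromosome 2, 48288461 to 48304696. Its levels were 56.1, 49.4 and 63.9 TPM in foxl2l+/+ and 113, 108 and 118 TPM in foxl2l-/- libraries, again without overlap. Hes6 rose by 0.75 ± 0.18 on the log2 scale (SE; adjusted p = 0.00695, edgeR). Its span overlaps that of itm2cb on the opposite strand by 10525 bases. Itm2cb stood at 101 and 92.2 TPM on average in foxl2l+/+ and foxl2l-/- libraries and was not called. The libraries do not record strand, so reads from shared stretches could go to either gene. Whether exons of the pair overlap was not examined.

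Her8a, a Hes-related repressor gene of the zebrafish nervous system (chromosome 7, 26429941 to 26436480), went from a low level to a moderate one. It read 1.68, 1.35 and 0.998 TPM in foxl2l+/+ and 6.64, 7.91 and 7.98 TPM in foxl2l-/- libraries. It rose by 2.22 ± 0.33 on the log2 scale (SE; adjusted p = 0.000429, edgeR), and the groups were far apart.

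Heyl had the largest fold change among the tested targets, from a low base, and entered the test through its foxl2l-/- counts. It encodes a Hey-type repressor and had 16, 4 and 5 counts in foxl2l+/+ and 91, 50 and 63 in foxl2l-/- libraries, or 0.460, 0.104 and 0.210 against 2.44, 1.38 and 2.03 TPM. The rise was 2.68 ± 0.71 on the log2 scale (SE; adjusted p = 0.0128, edgeR), and leaving out foxl2l-/- replicate 1 ended the call (adjusted p = 0.0573, where other alternatives gave 0.00148 or more). Without foxl2l+/+ replicate 1, the highest of its group, the log2 fold change of heyl was 3.38. The other Hey genes did not pass. Hey2, known as gridlock for its part in the zebrafish aorta, read 13.3, 15.2 and 18.3 TPM in foxl2l+/+ and 10.3, 6.98 and 17.8 TPM in foxl2l-/- libraries, with a log2 fold change of -0.69 ± 0.33 (SE). Without foxl2l-/- replicate 3, which was the high one, hey2 was called lower (-1.04, adjusted p = 0.0291 in edgeR's test). Hey1 was between 0.348 and 2.11 TPM in all libraries.

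The her15 genes, relatives of mammalian Hes5, are a tandem pair on chromosome 11 separated by 9799 bases. The table lists them as her15.1_1 (41981959 to 41984487) and her15.1_2 (41994287 to 41996957), and the reference names the second her15.2. Near-identical copies can split reads, so the value of each is uncertain. Her15.1_2 read 1.53, 2.52 and 2.18 TPM in foxl2l+/+ and 3.87, 7.27 and 5.60 TPM in foxl2l-/- libraries, with a rise of 1.15 ± 0.39 (SE; adjusted p = 0.0390, edgeR). Her15.1_1 read 0.507, 0.343 and 1.45 TPM in foxl2l+/+ and 2.23, 8.70 and 1.09 TPM in foxl2l-/- libraries, which overlap, with a log2 fold change of 2.18 ± 0.76 (SE; adjusted p = 0.0443, edgeR).

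Foxl2l-/- replicate 2 held the highest value of both copies. Without it the log2 fold change of her15.1_1 was 0.96 (adjusted p = 0.399) and that of her15.1_2 was 0.94 (adjusted p = 0.164) in edgeR's test. Without foxl2l+/+ replicate 3 that of her15.1_1 was 2.998. Over all alternatives to edgeR's main test the adjusted p ran from 0.00881 to 0.399 and from 0.0110 to 0.164. The call of her15.1_1 also ended without foxl2l+/+ replicate 1 or 2 (adjusted p = 0.143 and 0.152), in limma on TPM (0.0680 and 0.0634) and with the replicate block (0.131), and that of her15.1_2 without foxl2l+/+ replicate 1 or 3 (0.126 and 0.0816). Her2, the neighbour of the pair and another Hes5 relative, did not pass, at 9.65, 7.22 and 9.67 TPM in foxl2l+/+ and 16.0, 18.7 and 10.5 TPM in foxl2l-/- libraries.

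The her4 genes, Hes5 relatives that respond to Notch in the zebrafish nervous system, sit with her12 between 21444922 and 21471022 on chromosome 23 and were scarce in all libraries. Her4.1 had 0 counts in each foxl2l+/+ library and 35, 29 and 0 in foxl2l-/- libraries. Her12, 5571 bases away, had 0, 2 and 0 counts in foxl2l+/+ and 26, 23 and 0 in foxl2l-/- libraries. Both were thus seen in the same 2 foxl2l-/- libraries and not in replicate 3, where a count of 0 allows up to 3 counts. Neither had enough counts to be tested. With no filter on low counts her4.1 was called higher, and without foxl2l-/- replicate 3 so were both. Jag2a and rbpjl showed a like pattern, with 67 and 21 counts in foxl2l-/- replicate 1 and 1 and 3 in replicate 3, and were also called higher without that library. That fit tested these genes only through their counts in foxl2l-/- replicates 1 and 2, once the low library was dropped. Its calls restate those counts and are no separate support.

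The other copies of the cluster were not called. Her4.2_1 read 1.39, 0.682 and 0.706 TPM in foxl2l+/+ and 0.451, 0.464 and 0.472 TPM in foxl2l-/- libraries, with a log2 fold change of -1.24 ± 0.62 (SE; adjusted p = 0.148, edgeR). It shares 1872 bases with her4.3 on the same strand, so reads could go to either. Her4.2_2, named her4.5 in the reference, did not pass and stayed at 0.233 to 0.503 TPM, while her4.3 (0 to 13 counts) and her4.4 (3 to 15 counts) were not tested. Her9 lies on the same chromosome, outside this cluster.

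**Figure D3:**
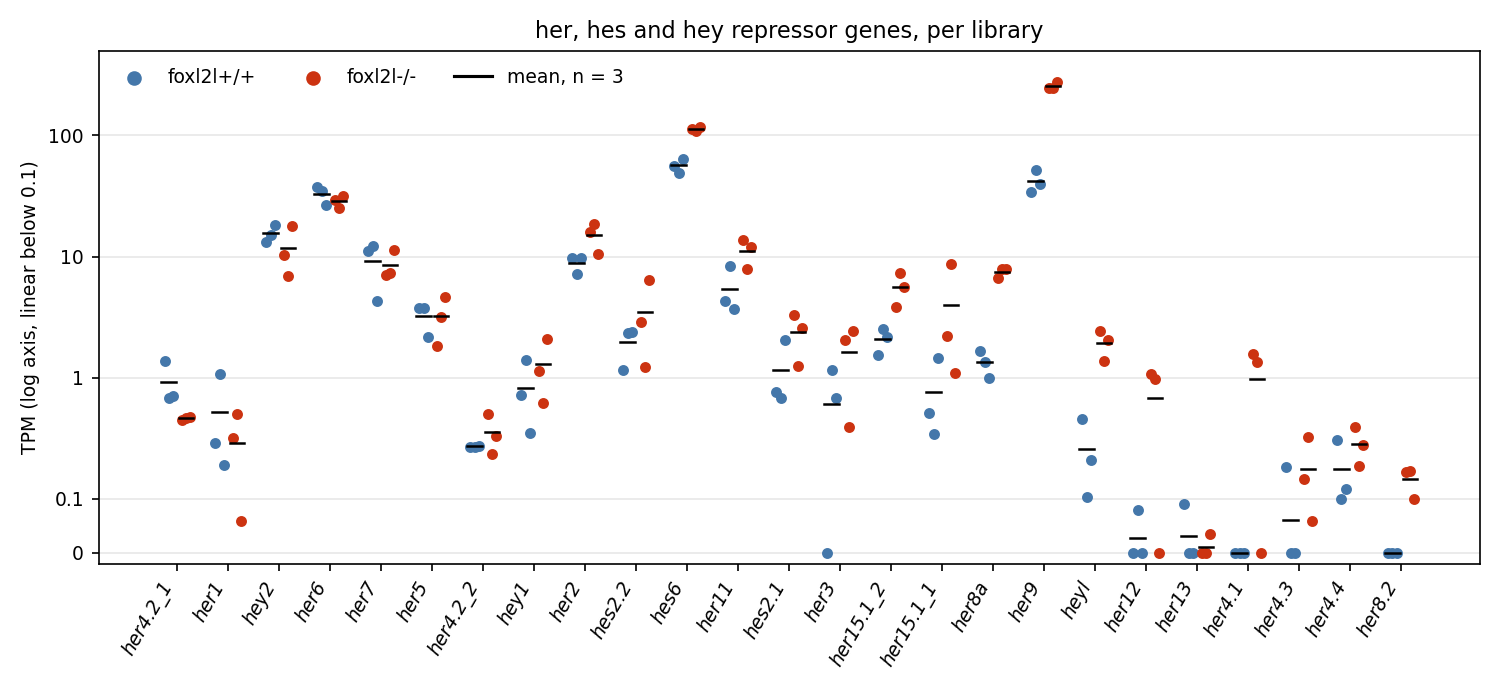
TPM of the 25 her, hes and hey genes in the 6 libraries, on a log axis that is linear below 0.1, with bars at the mean of 3 libraries. Her9 and hes6 stand above the rest in foxl2l-/- libraries, and her4.1 and her12 are seen in 2 of the 3 foxl2l-/- libraries.

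Not every abundant target passed. Her6, the zebrafish relative of Hes1 and the third most abundant target in both genotypes, read 37.2, 35.0 and 26.9 TPM in foxl2l+/+ and 29.1, 25.4 and 31.5 TPM in foxl2l-/- libraries. These overlap, and the log2 fold change of -0.46 ± 0.23 (SE) did not pass (adjusted p = 0.151, edgeR). Her6 and her9 stood at like levels in foxl2l+/+ replicate 1, at 37.2 and 34.1 TPM, whereas her9 was the higher in all other libraries. The share of her6 in the target sum was 17.9 ± 2.95% in foxl2l+/+ and 5.98 ± 0.396% in foxl2l-/- libraries. A share also depends on the sum of all targets, which was 185 ± 8.999 TPM in foxl2l+/+ and 479 ± 29.9 TPM in foxl2l-/- libraries.

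Her11 and her5, neighbours on chromosome 14 that act at the midbrain-hindbrain boundary, did not pass. Her11 read 4.31, 8.34 and 3.67 TPM in foxl2l+/+ and 13.6, 7.88 and 11.97 TPM in foxl2l-/- libraries, and was called higher in both limma fits on TPM (adjusted p = 0.0394 and 0.0408). Her5 was at 1.83 to 4.65 TPM in all 6 libraries. The segmentation clock genes her1 and her7, neighbours on chromosome 5, did not pass either. Her7 read 11.1, 12.1 and 4.34 TPM in foxl2l+/+ and 7.002, 7.34 and 11.3 TPM in foxl2l-/- libraries, with its lowest value in foxl2l+/+ replicate 3. Her1 was at most 1.08 TPM.

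Her3, hes2.1 and hes2.2, on chromosome 8, were low and uneven. Their TPM ran from 0 to 1.16, 0.685 to 2.06 and 1.15 to 2.37 in foxl2l+/+ libraries and from 0.394 to 2.43, 1.25 to 3.29 and 1.23 to 6.38 in foxl2l-/- libraries. All 3 overlapped between genotypes and did not pass. Her8.2 and her13, which are 8362 bases apart on chromosome 15, had at most 4 counts in any library and were not tested.

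**Figure D4:**
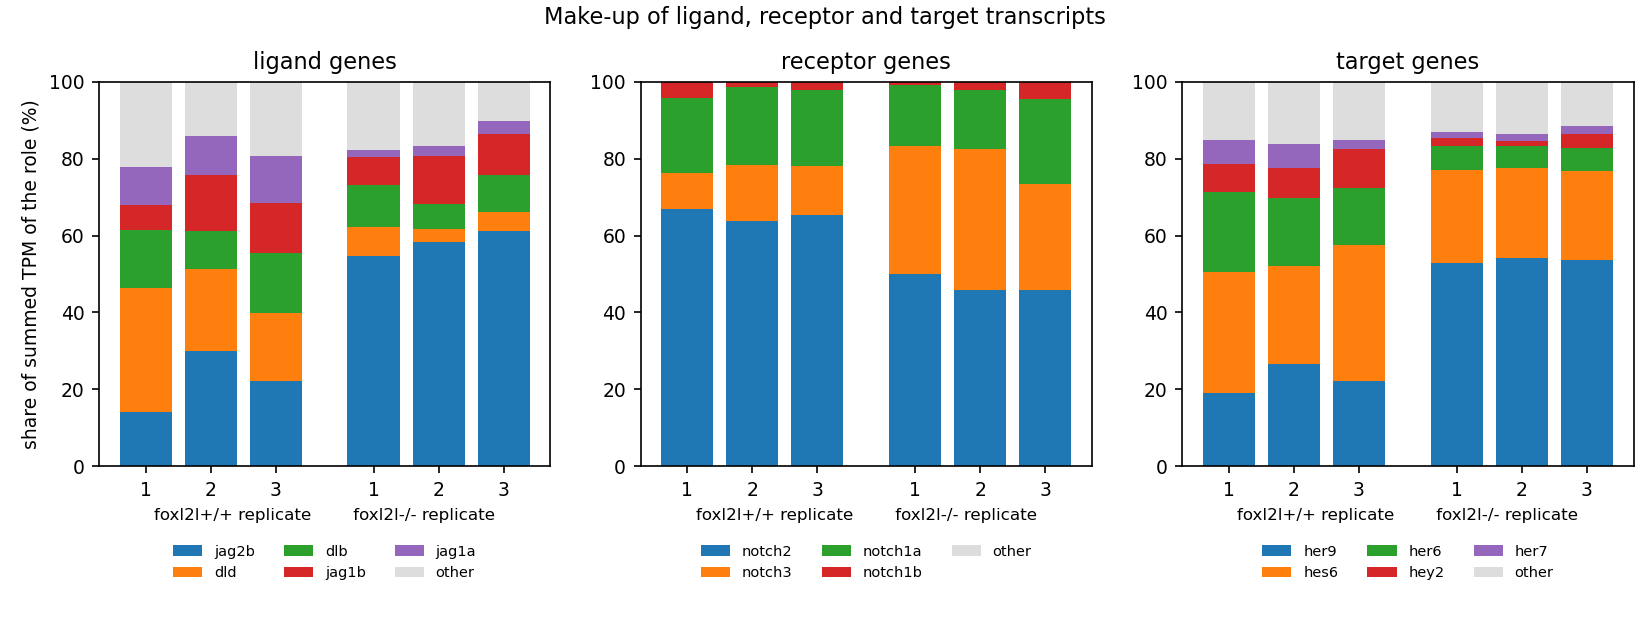
Share of each gene in the summed TPM of the ligands, receptors and targets, per library, in percent. Jag2b takes more than 50% of the ligand sum and her9 more than 50% of the target sum in each foxl2l-/- library, and notch3 takes a larger share of the receptor sum in foxl2l-/- than in foxl2l+/+ libraries.

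The name pattern does not match many other components of the pathway. Of 55 such genes listed 51 were in the table and 50 were tested, of which 4 rose and 10 fell. That is 8% higher and 20.0% lower, against 15.7% and 15.8% of all genes. Under library totals alone 5 rose and 6 fell, where 20.7% of all genes were called higher and 11.5% lower. Leaving out foxl2l+/+ replicate 2 left 1 higher and 8 lower, foxl2l+/+ replicate 3 left 1 and 6, foxl2l-/- replicate 2 left 3 and 6, and foxl2l-/- replicate 3 left 2 and 11. In the same order, 11.2%, 12.1%, 11.6% and 13.6% of all genes were called higher and 12%, 11.8%, 10.8% and 15.5% lower. The median log2 fold change of the 50 genes was -0.16 with all libraries. The list was drawn up with results of these data known, so its counts are a description.

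A group of 7 genes works on the ligand in the sending cell. Mib1, the ubiquitin ligase that drives endocytosis of Delta and Jagged and without which Notch signalling fails in zebrafish, read 9.84, 12.8 and 12.4 TPM in foxl2l+/+ and 5.66, 6.34 and 5.31 TPM in foxl2l-/- libraries. It fell by 1.27 ± 0.23 on the log2 scale (SE; adjusted p = 0.00162, edgeR). Neurl1ab, a Neuralized-type ubiquitin ligase, fell by 1.48 ± 0.24 (from 46.9 ± 11.4 to 20.4 ± 5.76 TPM), and epn1, an epsin adaptor, fell by 1.03 ± 0.22 (from 19.1 ± 3.24 to 11.3 ± 2.70 TPM). In all, 3 of the 7 genes of ligand uptake were called lower (42.9%, against 15.8% of all genes) and 0 higher (against 15.7%) in edgeR's test. Also 0 rose at an unadjusted p below 0.05 or with DESeq2 or limma. Neurl1b, not called, read higher in every foxl2l-/- library, at 2.47 ± 0.169 TPM against 1.25 ± 0.618 TPM in foxl2l+/+. Its log2 fold change was 0.73 ± 0.43 (SE), and those of mib2, epn2 and neurl1aa, also not called, were -0.36, -0.33 and -0.24.

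Of 10 genes of receptor cleavage 3 were called lower (30.0%, against 15.8% of all genes) and 2 higher (20.0%, against 15.7%). The lower call of aph1b and the higher call of adam10b ended in 10 and 8 of 15 alternatives. The lower call of adam10a and the higher call of adam17b ended in 2 and 3. Adam10b had 36, 55 and 11 counts in foxl2l+/+ and 49, 78 and 538 in foxl2l-/- libraries, and its log2 fold change of 2.45 was 0.59 without foxl2l-/- replicate 3 (adjusted p = 0.541, edgeR). Furina, a protease that matures Notch, fell by 1.15 ± 0.23 on the log2 scale (SE; adjusted p = 0.00303, edgeR), from 17.5 ± 3.93 to 9.51 ± 3.38 TPM (SD, n = 3). The xylosyltransferase gene gxylt1b, which extends a sugar on Notch, fell by 1.47 ± 0.22, from 31.4 ± 2.29 to 13.5 ± 1.71 TPM. Of 5 genes of sugar addition it was the only one called lower (20%, against 15.8% of all genes). Eogt was called higher (20%, against 15.7%), a call that ended in 5 of 15 alternatives. The median log2 fold change of the 5 was 0.45. Hdac1, a co-repressor subunit at unsignalled targets and a general deacetylase, rose by 1.57 ± 0.17, from 96.2 ± 7.05 to 343 ± 76.7 TPM. It was the only one of 20 nuclear cofactors to rise in edgeR's test (5%, against 15.7% of all genes). Of the 20, 2 fell (10%, against 15.8%), spen and cdk8, whose calls ended in 11 and 6 of 15 alternatives. Of 5 genes of Notch turnover 0 were called, against 31.6% of all genes. Of 2 feedback genes, nrarpb was not called, with a log2 fold change of -0.17 ± 0.46 (SE). It stood at 1.33 ± 0.408 TPM in foxl2l+/+ and 1.40 ± 0.466 TPM in foxl2l-/- libraries. The other, nrarpa, a feedback gene that Notch induces in the zebrafish embryo, was chosen after its values were seen. It fell by 0.74 ± 0.21 (SE; adjusted p = 0.0172, edgeR), from 17.9 ± 1.40 to 12.9 ± 2.12 TPM, a call that ended without foxl2l+/+ replicate 3 and without foxl2l-/- replicate 1 or 2, under library totals alone and in limma on TPM (adjusted p from 0.00304 to 0.126 over all alternatives to edgeR's main test).

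Markers of other cell types were present beside those of germ cells. The 14 endothelial markers summed to 48.5 to 73.2 TPM in foxl2l+/+ and 35.2 to 49.9 TPM in foxl2l-/- libraries, with 4 lower and 0 higher in edgeR's test (also 0 higher at an unadjusted p below 0.05 and with DESeq2 or limma). The 4 lower ones were tek, etv2, stab2 and esama, with log2 fold changes of -2.63, -2.47, -1.85 and -0.96, and esama was the most abundant, at up to 44.9 TPM. The other 10, kdrl and cdh5 among them at up to 2.10 and 0.744 TPM, were not called. Of these, sox18, cdh5, egfl7, pecam1 and kdr had log2 fold changes of 1.19, 0.77, 0.75, 0.70 and 0.66. Those of tie1, fli1a, sox7, clec14a and kdrl were 0.54, 0.53, 0.41, -0.01 and -0.19. The 17 somatic gonad markers summed to 21.3 to 25.4 TPM and 23.7 to 34.6 TPM, and the 10 neural markers to 34.2 to 42.4 TPM and 36.4 to 46.8 TPM. Blood and immune markers summed to 113 to 215 TPM in foxl2l+/+ and 109 to 159 TPM in foxl2l-/- libraries. The 215 TPM was in foxl2l+/+ replicate 1, where hbaa1 alone read 128 TPM. That gene read 9.98 and 6.79 TPM in foxl2l+/+ replicates 2 and 3 and 3.80, 4.32 and 9.23 TPM in foxl2l-/- libraries. Muscle markers did not overlap, at 119 to 129 TPM in foxl2l+/+ and 161 to 164 TPM in foxl2l-/- libraries, with 3 of 11 higher and 1 lower. Of the 14 somatic gonad markers tested 0 were called higher and 1 lower, and of the 10 neural markers 2 and 3. Among the 11 blood and immune markers tested 2 were higher and 3 lower. Over all genes tested, 15.7% were called higher and 15.8% lower. None of the markers of these 5 lists was at 0 in all libraries, and their part in the differences above was not tested.

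The authors' deposited table, whose model is not given, puts 13 of the 50 genes higher and 6 lower under the same threshold. These include all 16 genes called here, with no change of direction. The other 3 are jag2a, her12 and her4.1, with log2 fold changes of 2.82, 4.09 and 7.14 in the authors' deposited table, which were too low to be tested here. The authors' values rest on the same 6 libraries, so they are no separate support. The share of all genes that the authors' values call was not computed, so these counts are no result about the pathway.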

How the data were processed

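RNA of sorted EGFP-positive germ cells was turned into cDNA with the SMART-Seq HT kit and into libraries with the Nextera XT kit, per the labels' protocols; neither kit marks strand. The authors deposited a table with whole-number read counts and with TPM for each of 3 foxl2l+/+ and 3 foxl2l-/- libraries, per the file headers. It also holds the authors' own log fold changes and adjusted p-values. GRCz11 and bcl2fastq are named in the submitters' processing notes, while aligner, counter and the authors' model were not given in the sources used. The 12 other columns of per-sample values were not used.

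Counts were fitted on all genes with edgeR 4.0.16 in R 4.3.3 (filterByExpr, TMM factors, quasi-likelihood test, two-sided), and Benjamini-Hochberg adjusted p below 0.05 over all 23576 genes tested was called. SE is the log2 fold change divided by the square root of F. The fit was tested on simulated data. Alternatives were RLE factors, library totals alone, DESeq2 1.42.0, limma 3.58.1 with voom quality weights or on log2(TPM + 1) and log2(TPM + 0.1), no filter, 10 counts in 3 libraries, the replicate number as a block, and leaving out each library. A count of 0 allows up to 3 counts; this covers counting error only, since reads carry no molecular identifiers. With 3 against 3 libraries an exact permutation test of a single gene cannot go below 0.1, so none was used.

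The genes and lists were chosen with earlier results of these data known. By rule, values in every library were given for called genes, ligands and receptors, the remaining genes by range with the 5 highest in TPM named, and the 6 called genes of the other pathway list with the smallest p were named. Per-library values of further targets, modifiers and nuclear genes were added after they were seen. So were the values of nrarpa, nrarpb, adam10b, eogt, neurl1b, mib2, epn2, neurl1aa and single markers, and the mention of other called pathway genes. Gene names were those of the table, and 28988 of 31743 IDs, with all 50 genes described, matched the reference name table. Same-numbered libraries did not deviate together (r of -0.0376, 0.0502 and 0.0366), so numbers were not taken to pair them. No sequence is shown.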

Additional observations from a re-analysis of the deposited data

How the results depend on the processing

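The counts of Notch genes higher and lower stayed within 1.5 times of 10 and 6, at 7 to 13 and 4 to 8 over all alternatives, with 35 to 50 tested. Of all genes, 11.2% to 26.1% were called higher there and 10.8% to 20% lower, so these counts are no result about the pathway. Of the 16 called genes, 10 (hes6, her8a, her9, rbpjb, notch2, notch1a, rfng, numb, numbl and jag2b) were called in every alternative run. The other 6 (dld, jag1a, dtx4, heyl, her15.1_1 and her15.1_2) lost the call in at least 1. With the replicate number as a block, 8 were higher and 6 lower, where 15% and 15.6% of all genes were. The numbers were not taken to pair the libraries, since same-numbered ones did not deviate together, which cannot exclude a pairing. Among other pathway genes, the 4 higher became 2 with the replicate block and 1 to 3 when a library was left out. The 10 lower became 6 with library totals alone, 5 with either limma fit on TPM, and 6 to 11 when a library was left out. Of all genes, 15% were called higher with the replicate block and 11.2% to 13.6% when a library was left out. Lower calls were 11.5% of all genes with library totals alone, 13.5% and 13.1% in limma on TPM, and 10.8% to 15.5% when a library was left out. All genes gave 2708 to 5058 higher and 2542 to 4719 lower.

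Signs turned only for genes not called either way. The log2 fold change of maml1 was 0.16 with library totals alone, 0.10 with limma-voom, and 0.19 and 0.22 in limma on TPM. With limma-voom, dlb was at -0.21, hes2.2 at -0.31 and her4.2_2 at -0.15. When a library was left out, values ran from -0.076 to 0.67 for maml3, from -0.29 to 0.35 for notch3, from -0.16 to 0.33 for dlb and from -1.67 to 0.086 for her1. They ran from -0.10 to 0.98 for hes2.2, from -0.30 to 0.15 for maml1, from -0.12 to 1.01 for hey1 and from -0.25 to 0.42 for her4.2_2. The cause was not tested. Counts of a few reads limit the her4 genes, her12, her13, her8.2, jag2a and rbpjl, and the fit with all libraries tested only her4.2_1 and her4.2_2 of these.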
